A study of Rattus norvegicus with 3 samples.

Results

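Ccl25 and Ccr9 are the chemokine ligand and its receptor that were followed here in the thymus of the Lewis rat, an inbred strain. They are 2 of the 34034 genes measured, and they were chosen by name. Ccl25 was read over the labels of a stromal library and Ccr9 over the labels of a thymocyte library. For the stromal library, Liberase TH together with DNase I served to free the cells, and those lacking CD45, the surface protein of blood cells, were enriched with magnetic beads and sorted. For the thymocyte library the enzymes were collagenase D and DNase I. Both came from rats 8 weeks of age, with 1 library each. Animal number and sex are not given in the sources used here. Each cell carried the authors' projected label, made with mouse reference data, or else the name of its cluster. Gene levels in a spatial section of the same study were not analysed here. With 1 library per group there is no replicate and no test, so every interval below is a 95% interval for counting error only, and PCR, dissociation and differences between animals lie outside it.

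Ccl25 is a chemokine made mainly by epithelium of the thymus and the small intestine. In the thymus its main source is the cortical thymic epithelial cell (cTEC), and the transcription factor Foxn1 is known to drive it. Its receptor Ccr9 is a G protein-coupled receptor of developing T cells. Thymocytes pass from a double-negative (DN) stage without Cd4 and Cd8, through a proliferating double-positive stage (DP-P), to the double-positive stage (DP) with both. Cells that receive a signal through their antigen receptor (Pre DP-sig and DP-sig) become single-positive CD4 or CD8 cells, move to the medulla and leave. The pair helps to draw progenitors into the thymus and to hold thymocytes in the cortex. Ackr4 is a scavenger receptor that removes Ccl25 from the tissue.

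The stretch before the Ccl25 start site is shown because the ligand's restriction to a few cells is the main pattern below. It lies on chromosome 12 on the plus strand of RefSeq's GRCr8 build, at chr12:7504985-7505224, and was taken from a promoter window of 250 bases before and 50 after the start. 1 of the 2 genes had a window. Capitals mark the letters TATAA, the core of a TATA box.
Ccl25 upstream stretch: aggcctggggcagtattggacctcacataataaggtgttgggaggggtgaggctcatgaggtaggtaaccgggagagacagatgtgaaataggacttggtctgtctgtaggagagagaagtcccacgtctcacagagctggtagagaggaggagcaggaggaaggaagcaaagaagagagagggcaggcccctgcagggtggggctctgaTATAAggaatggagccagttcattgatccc
The letters TATAA stood 40 bases before the start, on the plus strand alone. They were present on either strand in 26.2% of 33469 promoter windows of the same length. The letters GACGC, the core that Foxn1 binds, were on neither strand of the Ccl25 window, and 25.9% of all windows held them. These are matches of letters and not sites of binding.

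The stromal library had 13226 annotated cells with a median of 9088 UMIs (counted molecules), and the thymocyte library 8546 cells with a median of 3994. 28 cell barcodes occurred in both. The cTEC label had the highest level of 4 of 6 cortical markers (Psmb11, Prss16, Ly75 and Tbata). The third label in order for Foxn1 was cTEC, after mTEC2 and mTEC-prol, and Dll4 was highest in capillary endothelium. The DP label was highest for 6 of 6 DP markers. The DN label was highest for none of its 5 markers, and the gamma-delta label (gdT) was above it for Kit, Notch1, Hes1 and Dtx1. The DN label also carried Cd8a at 702 CPM, Cd8b at 198 and Cd4 at 150, beside 892, 295 and 274 in DP-P, so its values go against the stage name, and DN below means the label.

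Ccl25 was concentrated in 1 stromal label. The 448 cells labelled cTEC held 2667 of the 3258 Ccl25 UMIs of the annotated stromal cells, a level of 535 CPM (515 to 555), where CPM is UMIs per 1000000 UMIs of the label. The medullary epithelial label mTEC2 followed at 111 CPM (89.9 to 135), and the cTEC level was 4.83-fold higher (3.94 to 5.97). The TEPC label had too few cells for a level, with 8 Ccl25 UMIs in 4 of its 9 cells. The other epithelial labels of at least 20 cells were low. Early progenitors were at 4.28 CPM (3.20 to 5.62), dividing mTEC at 4.39 (1.61 to 9.55) and mTEC1 at 2.95 (1.78 to 4.61). The 44 aaTEC1 cells had no Ccl25 UMI, which allows up to 4.76 CPM (3 UMIs). Of other stroma, capillary endothelium was at 6.52 CPM (4.37 to 9.36), and the 5 fibroblast labels ranged from 2.07 to 3.31. Below mTEC2 the neighbours in the order of levels did not differ beyond counting error where both were above the floor of 3 UMIs, except arterial endothelium over B cells (2.26-fold, 1.42 to 3.57).

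The cTEC level was 125-fold that of early progenitors (94.9 to 168), 181-fold that of mTEC1 (116 to 301) and 209-fold that of the 5 fibroblast labels together (181 to 243). Across all stromal labels, 14 of 17239 genes (0.0812%) were at least 3-fold higher in cTEC than in every other label. Ccl25 was one of them, with Prss16, a cortical protease, Ooep, Pithd1, Syne3 and Lmod3. A further 7 were Adipoq, Plin1, Cidec, Thrsp, Gpd1, Car3 and Cdo1, of which at least the first 5 are known from adipocytes. Which cells carried Car3 and Cdo1 was not examined. One had an identifier for a name.

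A UMI of Ccl25 was found in 26.1% of cTEC (22.1 to 30.4) and in 23.0% of mTEC2 (13.1 to 35.5), at median depths of 10535 and 13378 UMIs. Fibroblasts, which should lack the gene, gave 2.19% (1.89 to 2.53) at a median depth of 9006. Early progenitors (3.73%, 2.66 to 5.09) were above that share, while the intervals of mTEC1 (3.53%, 2.07 to 5.59) and myeloid cells (1.39%, 0.559 to 2.83) overlapped it. With each cell thinned to 5000 UMIs the shares were 17.3% of 388 cTEC, 20.4% of 49 mTEC2, 1.93% of 985 early progenitors and 1.26% of 7522 fibroblasts. Early progenitors were 1.68-fold above the fibroblasts in CPM (1.21 to 2.28) and mTEC1 1.16-fold (0.681 to 1.85), so mTEC1 did not differ from them beyond counting error. Ccl25 UMIs stood at 0.171 per Tbata UMI in cTEC (0.164 to 0.178) and at 0.123 in fibroblasts (0.106 to 0.143). Against Prss16 the values were 2.58 (2.40 to 2.78) and 5.46 (3.83 to 7.98). Whether free RNA gave the fibroblast UMIs was not tested.

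**Figure D1:**
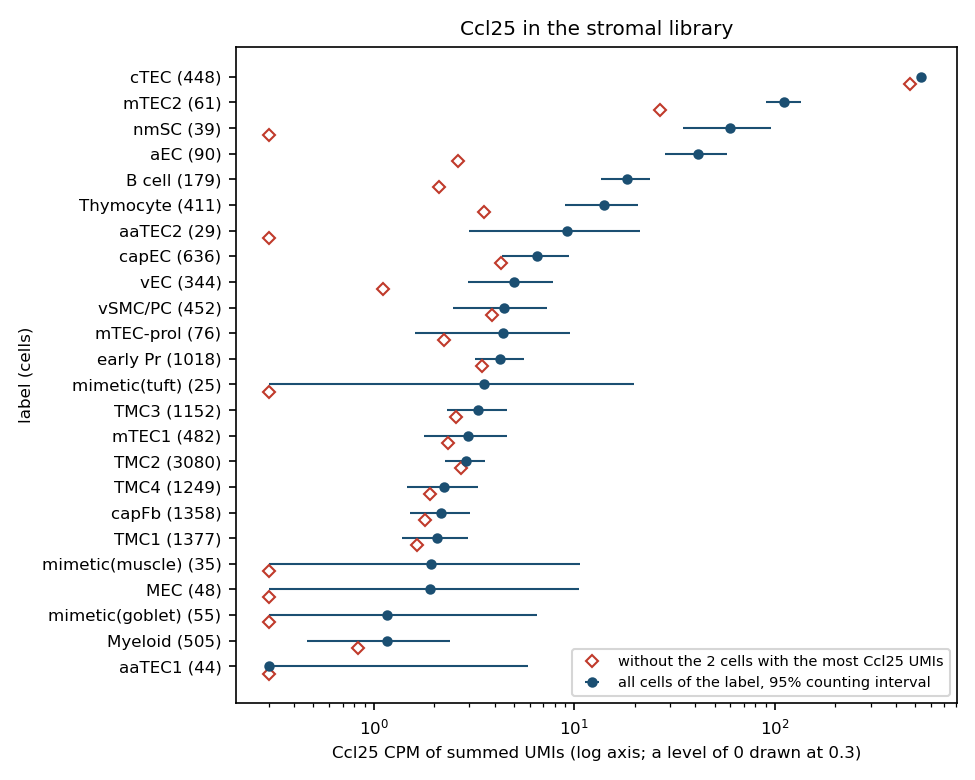
Ccl25 level in each stromal label of at least 20 cells, as CPM of summed UMIs on a log axis. Filled points give all cells with their 95% counting interval and open diamonds the level without the 2 cells with the most Ccl25 UMIs: cTEC moved from 535 to 472 CPM and mTEC2 from 111 to 26.7.

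Of 86 annotated cells with at least 5 Ccl25 UMIs, 72 were cTEC. The other 14 held 228 of the 591 Ccl25 UMIs outside cTEC (38.6%). In mTEC2, 75 of 97 UMIs were in 2 cells, with 39 and 36. Both had UMIs of Aire, the regulator of self-antigen expression in mTEC (28 and 7), and of Tbata (188 and 20), and no Prss16. Without those cells mTEC2 was at 26.7 CPM (16.7 to 40.4), still above the fibroblast labels. The only nmSC cell with Ccl25 held all 17 UMIs of its label, the 60.0 CPM of the third label in order. In the arterial endothelial label (41.2 CPM), 30 of 33 UMIs were in 1 cell, which had 20 Pecam1, 75 Tbata and 75 Col1a1 UMIs.

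The B cell label of the stromal library showed the same pattern. Of its 52 Ccl25 UMIs, 38 and 8 were in a pair of cells. These cells had 26 and 16 Epcam UMIs, 41 and 29 Ly75 UMIs, and none of Cd79a, Cd79b, Ms4a1 or Ptprc. In the Thymocyte label, 17 of 24 UMIs were in 1 cell with 92 Tbata UMIs and 1 Cd3e UMI. Without the 2 top cells these labels were at 2.12 and 3.53 CPM, beside 2.56 CPM (2.22 to 2.93) in the fibroblasts. No doublet caller was run, and whether such cells were captured in pairs was not tested.

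Among cTEC themselves Ccl25 was uneven. 331 of 448 cells (73.9%) had none, whereas Poisson counting at each cell's depth and one common level would leave 23.2 cells (5.19%) at 0. The 72 cells with at least 5 UMIs held 96.9% of the label's Ccl25, 15 cells held 50% of it, and the richest cell had 182 UMIs. The coefficient of variation of the cells' CPM was 3.01. The variance over the Poisson variance was 73.4, against a median of 1.43 over 4571 genes with at least 200 UMIs in cTEC, and 9 of these genes exceeded it. Tbata was one, at 197, while Foxn1 was at 2.65, Ly75 at 11.7 and Prss16 at 35.7. At an equal spread between cells this index rises with a gene's UMIs, and the genes were not matched for UMIs. Ccl25 had 2667 UMIs in cTEC, Tbata 15599, Ly75 4607, Prss16 1033 and Foxn1 273. The index therefore does not rank these genes by unevenness.

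The authors' clusters split the cTEC label into cells rich and poor in Ccl25. In cluster TEC-a, 56 of 72 cTEC (77.8%, 66.4 to 86.7) had a UMI, and the level was 2348 CPM (2226 to 2476). In cluster TEC-b, 16.4% of 311 cTEC (12.5 to 21.0) had one, at 271 CPM (254 to 289), and in TEC-c 14.5% of 55 (6.49 to 26.7), at 361.5 CPM (324 to 402). The TEC-a level was 8.66-fold that of TEC-b (7.96 to 9.42) in CPM and 6.465-fold (5.944 to 7.035) in UMIs per cell. In TEC-c, 2 cells with 141 and 120 UMIs held 77.7% of the cluster's cTEC Ccl25, and without them it was at 85.4 CPM (67.2 to 107). In TEC-b the 2 richest cells held 35.9%, and without them it was at 176 CPM (162 to 191), while TEC-a without its 2 richest was at 2051 CPM (1936 to 2172), a setting chosen after seeing the data. The cTEC of TEC-c also carried fibroblast markers, at a summed 16660 CPM beside 2055 CPM of cortical markers, where those of TEC-b had 549 CPM and those of TEC-a 1566 CPM of fibroblast markers. The part of these markers in the Ccl25 result was not tested. Thinned to 5000 UMIs, 70.6% of 34 TEC-a cells and 11.7% of 299 TEC-b cells had a UMI. TEC-a supplied 44 of the 72 rich cells, TEC-b 20, TEC-c 6 and TEC-d 2. Without TEC-a the cTEC level was 292.5 CPM (277 to 309), 2.64-fold that of mTEC2 (2.15 to 3.28).

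The clusters also differed in quality. Median depth was 4518 UMIs and 1642 genes in TEC-a, and 10757 UMIs and 3726 genes in TEC-b. The deposited mitochondrial percentage, which equals the UMIs of the 2 mitochondrial ribosomal RNAs in 13226 of 13226 cells (within 1e-06 percentage points), had a median of 0.0439% in TEC-a and 1.38% in TEC-b. Over the cTEC, those rich in Ccl25 had a median of 0.0822% and those at 0 a median of 1.28%. Within TEC-b alone the values were 0.986% in the 20 rich cells and 1.39% in the 260 cells at 0. Epcam, the general epithelial surface marker, had a UMI in 22 of 72 TEC-a cells and 304 of 311 TEC-b cells. The part of these differences in the Ccl25 result was not tested.

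A group of cTEC-labelled cells expressed adipocyte genes. 11 cells had at least 5 summed UMIs of Adipoq, Plin1, Cidec and Thrsp, 9 in TEC-a and 2 in TEC-c, and only 1 other annotated stromal cell did. None had a Ccl25, Foxn1, Prss16 or Psmb11 UMI, and 2 had an Epcam UMI. They were deep, with a median of 34741 UMIs, so that the 9 in TEC-a made up 49.6% of the UMIs of TEC-a cTEC. Without them Ccl25 was at 4657 CPM (4415 to 4910) in TEC-a and present in 88.9% of 63 cells. That level was 17.2-fold above TEC-b (15.8 to 18.7). In UMIs per cell the gap was smaller, with TEC-a at 21.9 (20.8 to 23.1) and TEC-b at 2.965 (2.776 to 3.162). Median depths were 3618 UMIs in these TEC-a cells and 10757 in TEC-b. The whole label then stood at 575 CPM (553 to 597).

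**Figure D2:**
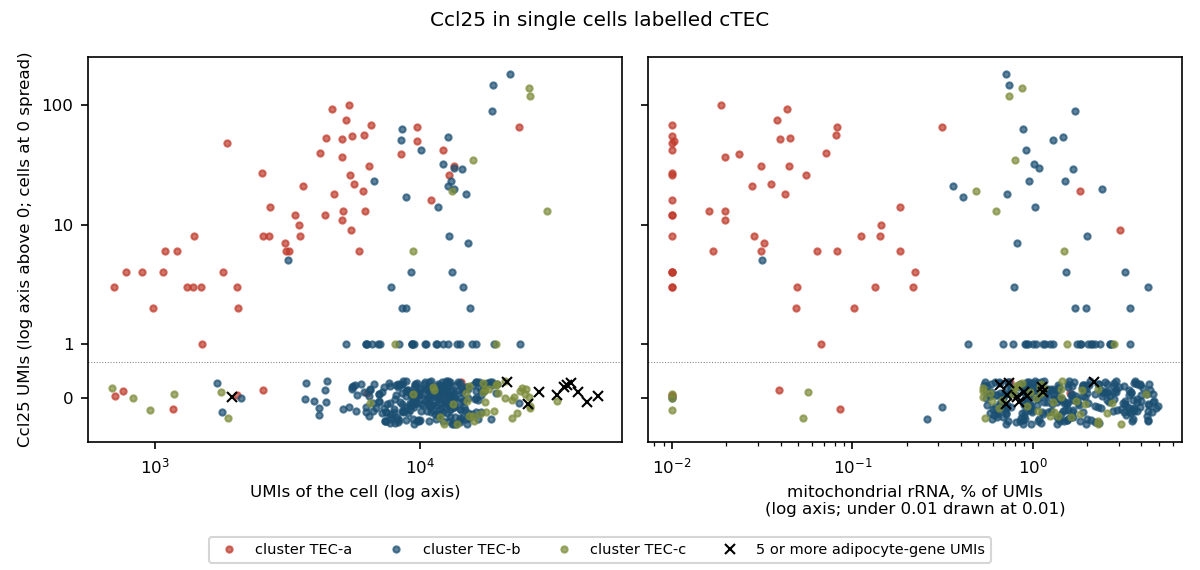
Ccl25 UMIs of each cell labelled cTEC in clusters TEC-a, TEC-b and TEC-c, against the cell's total UMIs and against its percentage of mitochondrial ribosomal RNA, all on log axes with cells at 0 spread in a band. TEC-a cells were mostly above 0 at low depth and low mitochondrial percentage, most TEC-b cells were at 0, and the 11 cells with adipocyte genes, drawn as crosses, were all at 0; 10 cells of 2 further clusters are not drawn.

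Cells rich in Ccl25 were also rich in cortical markers, and Tbata held 11728 of the 13645 UMIs of these markers there. The summed level of the 6 cortical markers was 21370 CPM in the 72 rich cells, 5197 CPM in the 45 cells with 1 to 4 UMIs and 1508 CPM in the 331 cells at 0, beside 708 CPM in early progenitors. Tbata alone gave 18370, 3411 and 647 CPM of these sums, and the other 5 markers together 3002, 1786 and 861, with 580 in early progenitors. Krt14, a keratin of basal and medullary epithelium, was lower in the rich cells, at 520, 3615 and 4775 CPM, and held 90.2% of the medullary list's UMIs in cTEC. The list's Aire and Fezf2 had 1 and 3 UMIs in all cTEC, Ccl21 was at 202, 91.5 and 451 CPM, and the general epithelial list, which also holds Krt14, at 5089, 9384 and 10060 CPM. Prss16 was at 1210 CPM in the rich cells and 38.1 in those at 0, Psmb11, the cortical proteasome subunit, at 57.9 and 3.03, Foxn1 at 124 and 40.8, and Ly75, an endocytic receptor, at 1583 and 773. The thymocyte list was at 18.8 and 33.5 CPM. These classes were cut by Ccl25 itself, so the values describe them and are no test.

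In classes again cut by Ccl25 itself, the same pattern appeared inside TEC-b. Its 20 rich cells had 2150 CPM of Prss16 against 45.9 in the 260 cells at 0, 2838 against 962 of Ly75, 163 against 52.0 of Foxn1 and 13580 against 741 of Tbata. Epcam was at 725 and 1209 CPM. Median depths were 12810 and 10714 UMIs, and the part of cell quality in this pattern was not tested.

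Across the 448 cTEC, Spearman's rho with Ccl25 was highest for F2 (prothrombin, 0.74), Cd83 (0.69), Cit (0.68), Tbata (0.66), Syne3 (0.66), Ooep (0.65) and Pithd1 (0.65). Cd83 on cTEC is known to support CD4 cell development. The median rho over the genes was -0.11 and the 5th to 95th percentile ran from -0.30 to 0.21. Depth itself gave -0.28. Cells of 1 library share free RNA and differ in depth, so the values are descriptive, and these genes were picked for their values. Within TEC-a the rho was lower without the 9 adipocyte-gene cells, all at 0 Ccl25, which were left out after seeing the data. That of Cd83 was 0.68 with them and 0.59 without, that of Tbata 0.57 and 0.37, and that of F2 0.49 and 0.26. Within TEC-b the rho of Cd83 was 0.39 and that of Tbata 0.42. Prss16 gave 0.49 over all cTEC, 0.42 in TEC-a (0.32 without the adipocyte-gene cells) and 0.38 in TEC-b. Pax1, a regulator of pharyngeal pouch epithelium, gave 0.51, and Il7, the thymocyte survival factor, 0.36. Foxn1 was at 0.14 over all cTEC and 0.20 in TEC-b.

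Ly75 had a rho of 0.01 over all cTEC, 0.19 within TEC-a without the adipocyte-gene cells (0.37 with them) and 0.32 within TEC-b. Ctsl, a cathepsin that processes antigen in the cortex, gave 0.09, 0.62 (0.65) and 0.30 in the same order. Cxcl12, the ligand of Cxcr4, gave -0.12, 0.50 (0.59) and 0.09. The lowest values were those of Oat (-0.56), Apoe (-0.55) and Spon1 (-0.54), and Krt14, a basal keratin, gave -0.51. Ackr4, the scavenger of Ccl25, gave -0.36 over all cTEC and -0.04 within TEC-b.

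**Figure D3:**
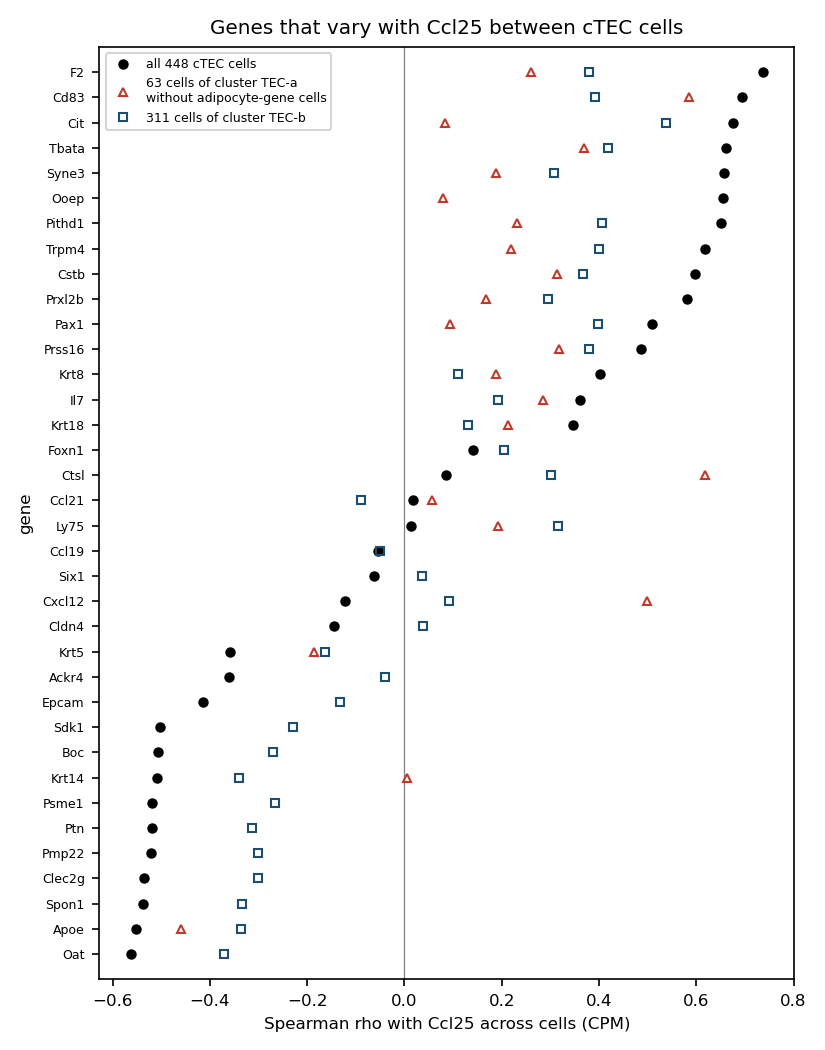
Spearman's rho between Ccl25 and each named gene across single cTEC, for all 448 cells, within cluster TEC-a without its 9 adipocyte-gene cells and within TEC-b, where the gene had at least 50 UMIs there. Cd83 and Tbata were positive in all 3 sets, Ctsl was at 0.09 over all cells, 0.62 in TEC-a and 0.30 in TEC-b, and Oat was negative over all cells and in TEC-b.

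Between cTEC and early progenitors, 3.76% of 14243 genes were at least 2-fold higher in cTEC and 2.65% at least 2-fold lower. Of 14 cortical genes tested beside Ccl25, 6 were higher (Foxn1, Psmb11, Prss16, Tbata, Dll4 and Cd83) and 1 was lower (Scx), with a median log2 ratio of 0.78 against 0.04 for all genes. Of 9 homing and scavenging genes, Ccl5 was higher and Ccl2 and Ackr4 were lower, and Ackr2 was at 0.487-fold on 6 UMIs (0.166 to 1.19), with a median of -0.49. Ackr4 was at 412 CPM in cTEC and 947 CPM in early progenitors, the opposite order to Ccl25. The medullary ligands of Ccr7 stood elsewhere: Ccl21 was at 391.6 CPM in cTEC and 12500 in mTEC1, and Ccl19 at 267 and 3483.

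Between TEC-a cTEC without the adipocyte-gene cells and TEC-b cTEC, 13.2% of 10861 genes were at least 2-fold higher and 27.3% at least 2-fold lower. Of 13 cortical genes, Psmb11, Tbata, Pax1, Il7 and Cd83 were higher and Ly75, Enpep and Cxcl12 lower, with a median log2 ratio of 0.16 against -0.20 for all genes. Cd83 was at 894 CPM (40.5-fold, 31.3 to 53.1) and Psmb11 at 77.6 CPM (11.0-fold, 5.93 to 20.4). Prss16 and Foxn1 were 1.25-fold (0.992 to 1.57) and 1.12-fold (0.680 to 1.76) in the same comparison, both with intervals that hold 1. Ackr4 was at 10.1 CPM in TEC-a (3 UMIs) and 510 CPM in TEC-b, a ratio of 0.0198 (0.00409 to 0.0581). With the adipocyte-gene cells kept, 13.4% of 11097 genes were higher and 30.0% lower, 3 cortical genes were higher (Psmb11, Tbata and Cd83) and 3 lower (Ctsl, Ly75 and Cxcl12), Dll4 was at 0.413-fold on 3 UMIs (0.0820 to 1.29), and Prss16 was at 0.633-fold (0.500 to 0.793).

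The 18 stromal labels of at least 50 cells gave the genes with a profile most like Ccl25 by Pearson's r of log2(CPM + 1). Lmod3 (0.82), Tbata (0.81), Ooep (0.80) and Pithd1 (0.79) led, followed by Etv3, Eif2b5, Cidec, Scd, Grifin and Prss16 (0.75). 7 of the 10 were shared with a pseudocount of 10 CPM, and 2 with Spearman's rho. Cidec and Scd, genes of fat storage and synthesis, were highest in the label that held the adipocyte-gene cells. The labels share 1 library and its free RNA.

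In the thymocyte library Ccl25 was nearly absent. The 8546 annotated cells held 84 UMIs, of which 68 were in the B cell and myeloid label and 63 in 1 cell of it. That cell had 9 Epcam, 40 Tbata, 9 Aire and 177 RT1-Da (MHC class II) UMIs, and none of Cd79a, Cd79b or Ms4a1. It also had 7 UMIs of Csf1r, a myeloid marker, and none of Lyz2 or C1qa. DP cells held 10 UMIs (0.529 CPM, 0.254 to 0.972) and DN cells 3.

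Ccr9 was low in DN cells, high from the DP stage to the first single-positive stage and low again in mature cells. DN cells were at 35.1 CPM (31.6 to 38.8) and DP-P at 69.0 (65.1 to 73.0). DP cells were at 499 CPM (489 to 509). Pre DP-sig cells had the highest level, 741 CPM (693 to 791). DP-sig were at 577 (536 to 620), Immature CD8-1 at 598 (550 to 648) and Immature CD4-1 at 571 (518 to 627), and these 3 neighbours did not differ beyond counting error. Immature CD4-2 were at 232 (200 to 267), Immature CD8-2 at 164.5 (132 to 202) and intCD4 at 260.5 (205 to 326).

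Mature cells were lower and differed among themselves. Mature CD4-2 were at 106 CPM (88.8 to 126) and Mature CD4-1 at 29.5 (19.9 to 42.2). Of the 30 Mature CD4-1 UMIs, 17 were in 2 of 121 cells, and the level without these cells was not computed. Mature CD8-1 were at 78.1 (61.3 to 97.99) and the 27 Mature CD8-2 cells at 29.0 (15.0 to 50.7). Mature cycling T cells were at 21.3 (12.6 to 33.6). The Pre DP-sig level was 21.1-fold that of DN (18.7 to 23.9), 25.1-fold that of Mature CD4-1 (17.5 to 37.4) and 9.49-fold that of Mature CD8-1 (7.48 to 12.2). The intervals of DN, gdT (29.4 CPM) and Mature CD4-1 overlapped, so these low labels on either side of the peak could not be ordered by CPM. In UMIs per cell DN was at 0.974 (0.879 to 1.08), gdT at 0.625 (0.496 to 0.778) and Mature CD4-1 at 0.248 (0.167 to 0.354). Thinned to 5000 UMIs, 16.6% of 385 DN, 13.2% of 121 gdT and 5.41% of 111 Mature CD4-1 cells had a Ccr9 UMI.

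Depth changed the size of the early step. DN and DP-P cells had median depths of 23190 and 15439 UMIs and DP cells 3206. From DP-P to DP Ccr9 was 7.23-fold higher in CPM (6.81 to 7.69), but UMIs per cell went from 1.39 to 1.81, a ratio of 1.30 (1.23 to 1.39). From DN to DP the ratio was 14.2 in CPM (12.8 to 15.8) and 1.86 per cell (1.68 to 2.07). On the scale of UMIs per cell the highest label was Immature CD4-1 (3.29, 2.99 to 3.62), then Immature CD8-1 (3.03), Pre DP-sig (2.74) and DP-sig (2.52), and neighbours in this order overlapped. Mature CD4-1 was the lowest on this scale, at 0.248 UMIs per cell (0.167 to 0.354), 13.3-fold below Immature CD4-1 (9.17 to 19.9).

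**Figure D4:**
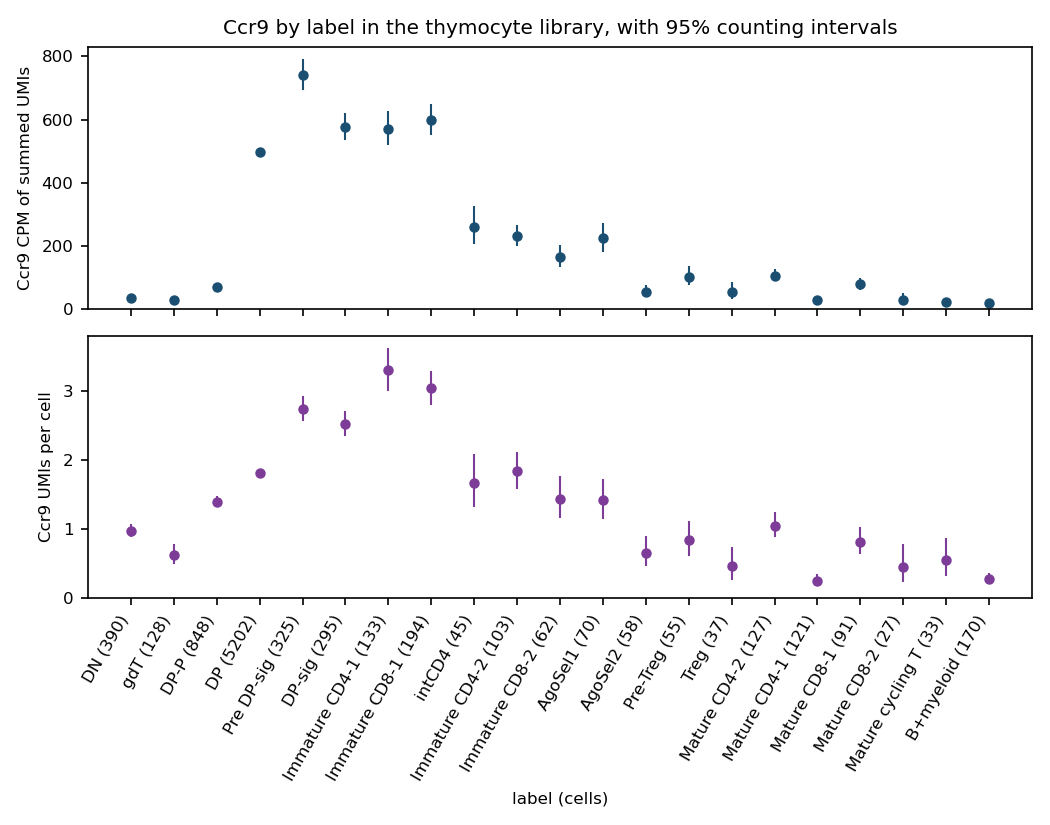
Ccr9 by label in the thymocyte library, above as CPM of summed UMIs and below as UMIs per cell, each with its 95% counting interval and cell number. CPM peaked at 741 in Pre DP-sig and UMIs per cell at 3.29 in Immature CD4-1, and the step from DP-P to DP was 7.23-fold above and 1.30-fold below.

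The share of cells with a Ccr9 UMI followed the same course. It was 156 of 390 DN cells (35.1% to 45.1%), 52.4% of DP-P (48.9 to 55.8), 70.9% of DP (69.6 to 72.1) and 87.4% of Pre DP-sig (83.3 to 90.8). Mature CD4-1 had 8.26% (4.03 to 14.7), at a median depth of 7964 UMIs. B and myeloid cells, which mostly should lack the gene, gave 10.6% (6.40 to 16.2) at a median depth of 11510 (7.41% of the 162 with fewer than 3 UMIs of Siglech), and stromal fibroblasts gave 10 UMIs in 8216 cells. The interval of the Mature CD4-1 share overlapped that background. Its level of 29.5 CPM was above the 10.5 CPM (6.68 to 15.8) of the cells poor in Siglech. However, 17 of its 30 UMIs were in 2 cells, so that difference in level rests largely on them. Thinned to 1000 UMIs the shares were 4.87% of DN, 7.78% of DP-P, 36.8% of DP, 49.2% of Pre DP-sig and 2.48% of Mature CD4-1.

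The DN label was not uniform for Ccr9. Its 192 cells in cluster DN, with a median depth of 37879 UMIs, were at 15.6 CPM (12.9 to 18.6), and its 151 cells in cluster DP-P2, at 11832 UMIs, at 93.4 (80.8 to 107). The second was 5.99-fold higher (4.76 to 7.57) in CPM and 2.05-fold (1.63 to 2.59) in UMIs per cell. DP-P split alike, at 24.4 CPM (21.1 to 28.1) in cluster DN, 95.8 (89.0 to 103) in DP-P1 and 166 (146 to 188) in DP-P3. The 2 clusters that held most DP cells were close, at 486 CPM in DP1 and 525 in DP2, a ratio of 1.08 (1.03 to 1.13).

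Between cells of 1 label, the variance of Ccr9 over the Poisson variance was lowest in Pre DP-sig (1.61) and DP (1.75). Immature CD8-1 was close to DP, at 1.77. In DP, 1516 cells were at 0 against 1070 from Poisson counting. The index was higher in DN (4.82), DP-P (4.11) and Mature CD4-1 (4.31), and in Mature CD4-1 2 cells held 17 of 30 UMIs. It also varies with UMIs per cell, for which the labels were not matched. In Mature CD4-2, 84 of 127 cells were at 0 against 47.2 from Poisson counting. Cells of that label with a UMI of Rag1, a recombinase of immature cells, were at 164 CPM of Ccr9 (128 to 206), and those without at 75.6 (58.0 to 96.9). With such cells left out of both labels, Mature CD4-2 was still 3.33-fold above Mature CD4-1 (2.02 to 5.69).

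From DP-P to DP, 24.3% of 13423 genes were at least 2-fold higher and 14.6% lower, so a 7.23-fold step as in Ccr9 stood among many others past 2-fold. 6 of 13 migration genes were higher (Ccr4, Cxcr5, Cxcr6, Xcr1, Plxnd1 and Itgb7), with a median log2 ratio of 0.91 against 0.31 for all genes. Plxnd1, a semaphorin receptor that steers thymocytes to the medulla, was at 21.3 and 79.6 CPM. Of 26 stage genes, Il2ra, Tcf12, Rag1, Rag2, Cd4 and Cd8b were higher and Notch1, Hes1, Tcf3, Mki67 and Top2a lower. From DN to DP-P, where Ccr9 was 1.97-fold higher (1.75 to 2.21), 4.23% of 12481 genes were at least 2-fold higher and 3.51% lower. Among 10 migration genes Plxnd1 was higher and Gpr183 was at 2.69-fold on 17 and 4 UMIs (0.878 to 11.0), and Il2ra, Mki67 and Top2a were higher among 26 stage genes.

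From DP to Pre DP-sig Ccr9 was 1.48-fold higher (1.38 to 1.59), and 6.25% of 12296 genes were at least 2-fold higher and 4.72% lower. Ccr4, a receptor for medullary chemokines, was at 1.75 and 14.2 CPM (8.12-fold, 4.24 to 15.0), and the integrin Itga4 was also higher, while Plxnd1 was lower. S1pr1 (3.15-fold, 0.942 to 8.38) and Cxcr5 (0.284-fold on 2 UMIs, 0.0340 to 1.05) were past 2-fold with intervals that hold 1. Of 26 stage genes, Id3, Runx3, Cd69 and Itm2a were higher and 10 were lower, among them Rag1 (154 against 1952 CPM), Rag2 and Ptcra. Cxcr4, which responds to Cxcl12, was at 138 and 129 CPM (1.06-fold, 0.903 to 1.25).

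From Immature CD4-1 to Mature CD4-1 Ccr9 was 19.3-fold lower (13.4 to 29.0), while 11.9% of 7424 genes were at least 2-fold lower and 4.69% higher. Ccr7, the receptor that draws cells into the medulla, was at 18.2 and 59.1 CPM, and S1pr1, the exit receptor, at 2.61 and 220. Among the migration genes Itgb7 was higher as well, and Ccr4 and Ccr8 were lower. On the CD8 side Ccr9 was 7.66-fold lower (6.01 to 9.89), with 13.2% of 7695 genes at least 2-fold lower and 4.50% higher. Ccr7 and S1pr1 were higher and Ccr4 and Ccr8 lower. Mature CD8-1 had 2.64-fold the Ccr9 of Mature CD4-1 (1.71 to 4.19), in which 2 cells held 17 of the 30 UMIs. This order was not general to CD8 and CD4 cells. Mature CD4-2, at 106 CPM, was not below Mature CD8-1, at 78.1, and Mature CD8-2 was at 29.0. From Immature CD4-1 to CD4-2 Ccr9 was 2.46-fold lower (2.07 to 2.94) and from Immature CD8-1 to CD8-2 3.63-fold lower (2.90 to 4.60).

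Cells with UMIs of both Ccr9 and Ccr7 were a minority of every label. Both were found in 4 of 5202 DP cells, 12 of 133 Immature CD4-1, 12 of 103 Immature CD4-2, 11 of 127 Mature CD4-2 and 6 of 121 Mature CD4-1 cells. Ccr7 without Ccr9 was found in 1.504% of Immature CD4-1, 4.85% of Immature CD4-2, 21.3% of Mature CD4-2 and 30.6% of Mature CD4-1. In Mature CD8-1, 23 of 91 cells had Ccr9 and S1pr1 and 40 had S1pr1 alone. At these counts a missing UMI does not show absence of the RNA.

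**Figure D5:**
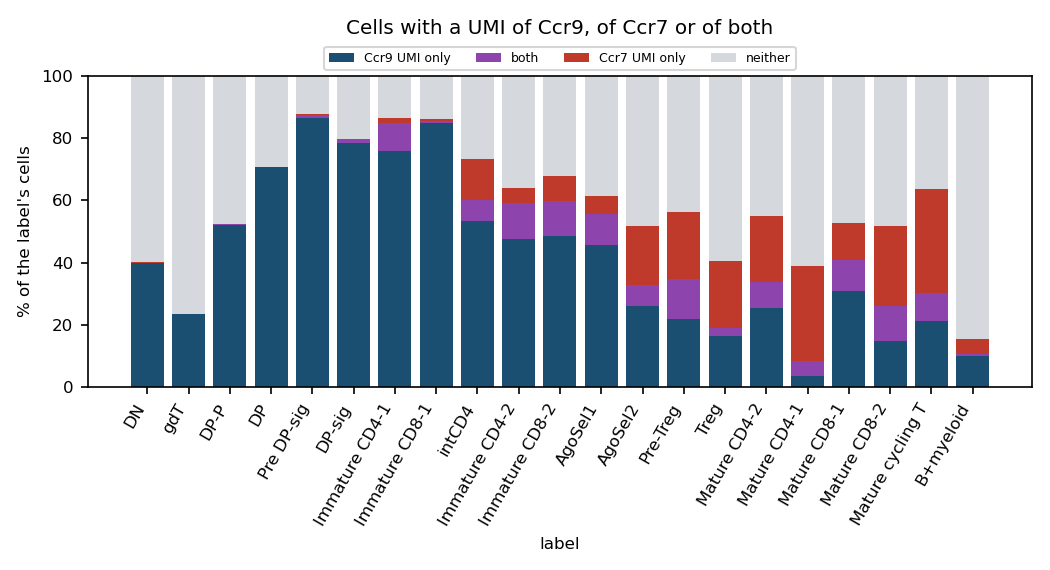
Share of cells of each thymocyte-library label with a UMI of Ccr9 only, of Ccr7 only, of both or of neither, not corrected for depth. Ccr7-only cells made up 1.504% of Immature CD4-1 and 30.6% of Mature CD4-1.

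In the agonist-selected and regulatory T cell (Treg) labels Ccr9 was lower in the second label of each pair. AgoSel1 was at 224 CPM (182 to 272) and AgoSel2 at 54.5 (38.6 to 74.8), a ratio of 4.11 (2.80 to 6.14). Pre-Treg were at 103 CPM (75.4 to 137) and Treg at 53.7 (31.2 to 85.9), a ratio of 1.92 (1.08 to 3.57).

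In the B cell and myeloid label Ccr9 was at 19.2 CPM (14.1 to 25.7), with 46 UMIs in 170 cells. 8 cells had at least 3 UMIs of Siglech, a marker of plasmacytoid dendritic cells, which are known to bear Ccr9. They held 23 of the 46 UMIs, in 6 cells, a level 10.5-fold that of the rest (5.61 to 19.5). Of these 23 UMIs, 15 were in 2 cells. Median depth was 24608 UMIs in the 8 cells and 10894 in the rest, and the cut on Siglech was chosen after the values were seen.

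In the stromal library, 544 of 604 Ccr9 UMIs were in the 411 cells of the Thymocyte label, at 317 CPM (291 to 345) and in 59.6% of cells. The B cell label held 15 UMIs (9 of them in 2 cells), capillary endothelium 10 (8 in 2 cells) and mTEC2 9 (7 in 2 cells). The 5 fibroblast labels were at 0.127 CPM (0.0607 to 0.233).

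The 17 thymocyte-library labels of at least 50 cells gave the genes most like Ccr9. They were Ubr1 (r of 0.94), Psd4, Slc38a2, Erc1, Prrc2b, Ubl7, Zfp644, Ppp2r2a, Tsc22d4 and Baiap3 (0.92), of which 9 were shared with a pseudocount of 10 CPM and 5 with Spearman's rho. The labels share 1 library, and depth differs between them as given above.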

How the data were processed

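Unnormalized UMI counts per gene and cell were deposited for a stromal and a thymocyte library, made with Cell Ranger 8.0.0 and Seurat 5.3.0 on mRatBN7.2, per the submitters' processing notes. The authors' metadata, as deposited, give depth counts, a percent of mitochondrial UMIs and 2 label columns; the projected label was used, else the cluster. The section was not used here. The members and lists were chosen with earlier results of these data known. Levels are CPM of summed UMIs for labels of at least 20 cells, with exact Poisson intervals; shares have Clopper-Pearson intervals and ratios conditional binomial ones. Calls across genes used a 2-fold difference and at least 20 UMIs, with fewer than 3 UMIs set to 3 as the floor of the lower side. Thinning drew cells to 1000 or 5000 UMIs (seed 7). Named genes were the members, listed genes with at least 20 UMIs and the 10 most like profiles; genes named for their rho within cTEC or their lead there, and the adipocyte and Siglech cells, were chosen after their values were seen. No doublet caller was run. Scripts used Python 3.11.15, pandas 2.3.3, NumPy 2.4.6, matplotlib 3.10.9 and SciPy 1.17.1 and were tested on simulated counts. Results for some listed genes are not reported here.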

Additional observations from a re-analysis of the deposited data

Results flagged for a closer look

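Both genes had UMIs in stromal barcodes that carry no annotation, a set no comparison above uses. The 2934 barcodes held 760 Ccl25 UMIs, a level of 87.7 CPM (81.6 to 94.2), where 3 counts would be 0.346 CPM. Of these UMIs, 671 were in 9 barcodes with at least 5 each, and the richest had 257, more than any annotated cell. All 9 had a Tbata UMI and 7 an Epcam UMI. 5 of the 9 had more genes than the 6999 that is the most in an annotated cell, and 3 had a higher share of mitochondrial ribosomal RNA than the annotated maximum of 4.99%. Ccr9 had 21 UMIs in 14 of these barcodes, 2.42 CPM (1.501 to 3.71), beside 4.59 CPM in annotated stromal cells. The 28 unannotated barcodes of the thymocyte library had neither gene, which allows up to 109 CPM (3 UMIs).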

How the results depend on the processing

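No paired analysis was possible because only 1 library stood for either group. Of 566 values under an alternative setting, 145 moved outside their counting interval or a set range of at most 1.5-fold. Reversals were not counted. In the settings run by label, cTEC stayed highest for Ccl25 with mTEC2 next, and Pre DP-sig stayed highest for Ccr9 except per cell (Immature CD4-1).

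The Ccl25 level in cTEC was 557.2 CPM for cells below the 99th percentile of depth and 870.6 as a mean over cells. It was 679.2 over a total without mitochondrial, ribosomal protein and haemoglobin genes and 920.3 thinned to 1000 UMIs. By cluster alone the highest level was 924.3 CPM, over all 188 cells of cluster TEC-a, 72 of them labelled cTEC. The ratio of cTEC to the next label was 7.76 as a mean over cells, 6.902 thinned and 6.61 without cells with thymocyte genes. That of cluster TEC-a to the next cluster was 11.08. The share of cells was 18.22% in cTEC thinned and 36.7% in all of cluster TEC-a. Over all cells of that cluster, the coefficient of variation was 2.191, the variance over Poisson 65.8 and the share at 0 63.3%. In cTEC thinned to 1000 UMIs, the last 2 measures were 8.932 and 81.78%, and at 5000 UMIs the 3 were 3.517, 34.53 and 82.73%. Chosen after seeing the data, leaving out TEC-a gave 292.5 CPM, a ratio of 2.568, a share of 16.22%, and a spread of 4.248, 54.46 and 83.78%. Leaving out the 2 richest cells of each label gave 472.2 CPM and a ratio of 17.69, and leaving out adipocyte-gene cells 574.5 CPM.

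The highest Ccr9 level was 985.4 CPM over the reduced total and 589.3 by cluster (Early SP), and the share 49.23% thinned. Its ratio to DN was 14.63 as a mean over cells, 14.94 thinned and 29.55 by cluster. Thinned, the ratio to Mature CD8-1 was 13.94, and Mature CD8-2, with 0 UMIs left, gave none. Per cell, chosen after seeing the data, the ratios were 3.38 to DN, 13.28 to Mature CD4-1, 3.145 to CD4-2, 4.05 to CD8-1, 7.41 to CD8-2 and 6.038 to cycling cells; without Rag1-positive cells the ratio to CD4-2 was 9.798. The cause of these shifts was not tested.

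With at least 50 rather than 20 UMIs fewer genes were tested, and calls went from 536 to 300 higher and 377 to 179 lower (cTEC over early progenitors), 528 to 348 and 438 to 246 (DP-P over DN), 769 to 477 higher (Pre DP-sig over DP), 348 to 177 and 881 to 429 (CD4) and 346 to 157 and 1017 to 499 (CD8).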
